A study of Mus musculus with 8 samples.

Results

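Pou5f1, Sox2, Nanog, Sall4, Utf1, Lin28a and Lin28b are genes of mouse embryonic stem cells that are known from both the naive and the primed state of pluripotency. They were taken by symbol from the deposited expression values, where each of the 7 has 1 row among 24505 rows per library. RNA was sequenced from an embryonic stem cell line with a conditional Ino80 allele, where Ino80 encodes the motor subunit of a nucleosome remodelling complex of the same name. Naive cells grew on gelatin in N2B27 medium with the MEK inhibitor PD0325901, the GSK3 inhibitor CHIR99021 and the cytokine LIF (2iL). Primed cells grew on fibronectin with FGF-2, Activin A and XAV-939, an inhibitor of tankyrase (FAX). Each state had 2 libraries labelled knockout and 2 labelled wild type, all from the line with the conditional allele, 8 libraries in all. The protocol for deletion gave 100 nM 4-OHT for 2 days and left the cells for 2 more days. The labels do not say whether the wild-type cells received 4-OHT, nor whether the 2 libraries of a group were separate cultures. The p-values therefore measure only how far such libraries lie apart, and that distance may be technical. The question named by the series is what INO80 deletion does to the transcriptome in the naive and the primed state.

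OCT4, the product of Pou5f1, is a POU-domain transcription factor, and SOX2 is its HMG-box partner. They bind next to each other on composite DNA elements in the enhancers and promoters of pluripotency genes, their own among them. NANOG is a homeodomain factor bound at many of the same genes, SALL4 is a zinc finger factor that interacts with OCT4 and NANOG, and UTF1 is a chromatin-bound protein of undifferentiated cells. LIN28A and LIN28B are related RNA-binding proteins that block maturation of the let-7 microRNAs, and LIN28A does so by recruiting the uridylyl transferase ZCCHC11 to the let-7 precursor.

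The promoter windows of the members were searched for the letters of the elements that OCT4 and SOX2 bind, because the members are known targets of each other. RefSeq sequence of build GRCm38.p6 was found for 6 of the 7 members by symbol, in 8 windows from 250 bases before to 50 bases after a start site. The octamer core was searched as TTTGCAT, the SOX element as ACAATG, and the composite element as TTTGCATNACAATG, each on both strands. The composite contains both shorter motifs, and its letters were written with the Nanog element already known. The 250 bases before the start site are printed here, 5′ to 3′ on the strand of the gene, for Nanog, the member with the composite, for Sox2, the member with an octamer core alone, and for Lin28a, the member with the largest fall in the primed comparison. Capitals mark the motif letters.
Nanog, chr6:122707239-122707488, plus strand: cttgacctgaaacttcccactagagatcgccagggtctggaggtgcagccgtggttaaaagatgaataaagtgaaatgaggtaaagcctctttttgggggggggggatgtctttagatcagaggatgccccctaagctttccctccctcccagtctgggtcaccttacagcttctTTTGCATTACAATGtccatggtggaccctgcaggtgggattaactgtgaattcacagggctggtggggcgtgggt
Sox2, chr3:34649745-34649994, plus strand: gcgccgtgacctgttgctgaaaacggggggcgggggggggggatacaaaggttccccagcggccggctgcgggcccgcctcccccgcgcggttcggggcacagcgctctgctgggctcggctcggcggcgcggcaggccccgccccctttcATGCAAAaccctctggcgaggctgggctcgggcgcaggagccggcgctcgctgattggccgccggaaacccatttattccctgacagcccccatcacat
Lin28a, chr4:134018817-134019066, minus strand: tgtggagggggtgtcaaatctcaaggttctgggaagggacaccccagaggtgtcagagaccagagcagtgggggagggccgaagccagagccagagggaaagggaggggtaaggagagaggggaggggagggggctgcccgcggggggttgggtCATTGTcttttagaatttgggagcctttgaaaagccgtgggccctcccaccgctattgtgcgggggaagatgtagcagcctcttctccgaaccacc

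In the Nanog window the composite spans positions -75 to -62 from the start site and carries its parts on the same strand. Among 32851 promoter windows of 27025 genes the composite occurred in 2, both of them Nanog windows that overlap each other. The Sox2 window holds the octamer core on the opposite strand, at -99 to -93, and the core occurred in 4.63% of all windows. The Lin28a window holds the SOX element on the opposite strand, at -96 to -91. This window lies within the RefSeq span of the gene, chr4:134003330-134019196, and its positions count from its own start site. The Pou5f1 window at the start of the gene holds none of the motifs. A further Pou5f1 window, chr17:35508557-35508856, lies within the gene and holds the SOX element at -158 to -153 from its own start site. The SOX element occurred in 12.6% of all windows. None of these motif letters were found in the windows of Utf1 and Lin28b, which says only that the letters are not in those windows. The Lin28b window, chr10:45470152-45470451, lies within its gene, which spans chr10:45376617-45486314.

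The values are RPKM, that is, reads per length of transcript and per depth of library, which the authors scaled again by a method that is not stated. Sequencing depth is unknown, since the deposited values of a library sum to between 341480.0 and 507598 RPKM. The 4 naive sums lie between 398427 and 404303 RPKM. Whether the naive and the primed libraries share a common scale is not known, so levels of the states stand side by side below and were not tested against each other. Within a state, knockout was compared with wild type as the difference of mean log2(RPKM + 1), with limma across the 13428 genes that reached 1 RPKM in 2 or more libraries, with Benjamini-Hochberg adjustment over all of them. All 7 members passed that filter. As deposited, the naive libraries labelled knockout were not lower in Ino80 (15.9 and 15.1 RPKM, against 17.0 and 14.5 RPKM in wild type). The naive change was -0.020 ± 0.18 (limma adjusted p = 0.975). It was -0.08 after median centring, -0.08 after quantile and -0.10 after loess normalization (limma adjusted p = 0.474, 0.0807 and 0.0461). Primed knockout libraries were lower in Ino80, at 9.12 and 8.74 RPKM against 15.9 and 20.3 RPKM, a change of -0.93 ± 0.18 (limma adjusted p = 2.0e-06). That change of Ino80 was -0.24 after median centring, -0.26 after quantile and -0.28 after loess normalization (limma adjusted p = 0.0124, 2.3e-04 and 1.1e-04). Directions in the naive comparison therefore refer to the libraries labelled knockout. The median gene changed by 0.05 in the naive and by -0.53 in the primed comparison, so primed changes are also given relative to that median. In bulk RNA, fewer cells with a transcript and less transcript per cell cannot be told apart.

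**Figure D1:**
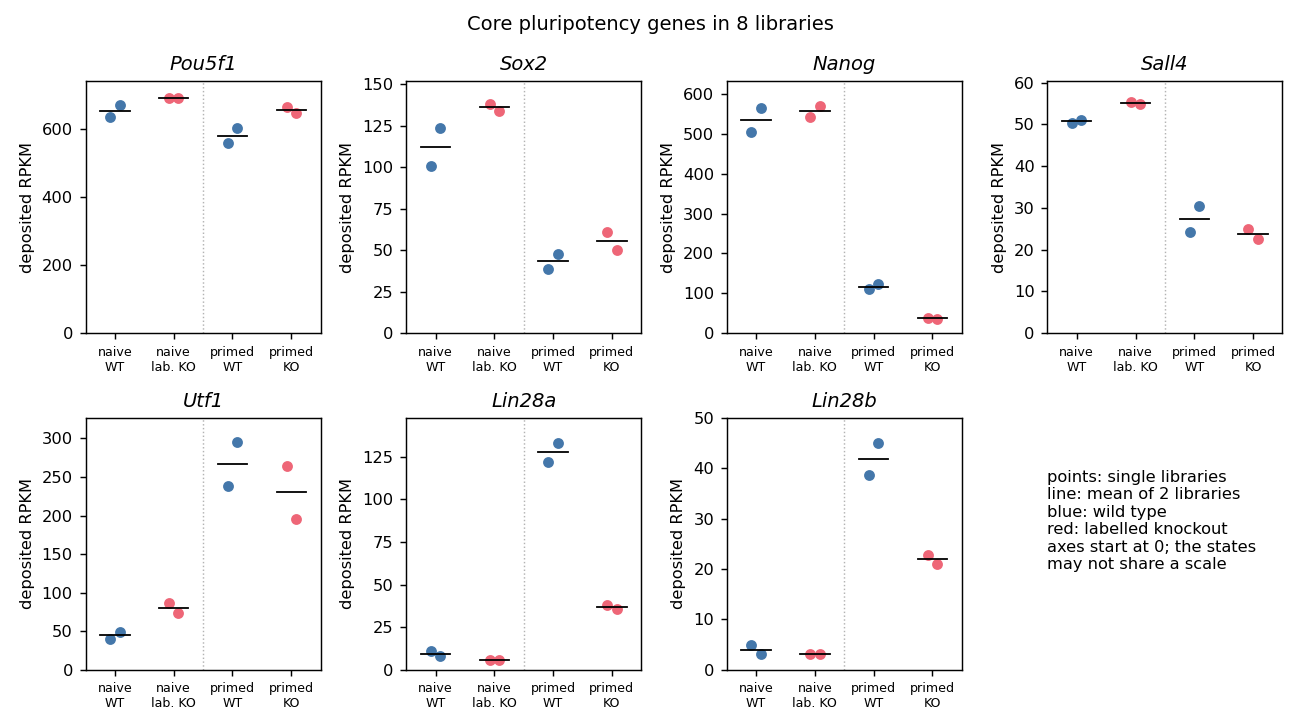
Deposited RPKM of the 7 genes in each of the 8 libraries, with 1 panel per gene, an axis that starts at 0, and a line at the mean of the 2 libraries of a group. Nanog, Lin28a and Lin28b lie lower in both primed knockout libraries than in both primed wild-type libraries, and Utf1 lies higher in both naive libraries labelled knockout than in both naive wild-type libraries.

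Pou5f1, which encodes OCT4, was among the most highly expressed genes in every library. Naive wild-type libraries held 635 and 671 RPKM and the naive libraries labelled knockout 694 and 693 RPKM. Primed wild-type libraries held 559.6 and 604 RPKM and primed knockout libraries 667 and 649 RPKM. The libraries labelled knockout were the higher ones in both states, with no overlap. By rank among all 24505 rows, Pou5f1 stood between 51 and 82 from the top in all 8 libraries. The naive change was 0.09 ± 0.072 (95% CI -0.05 to 0.23) and did not pass the test (limma adjusted p = 0.527). The primed change was 0.18 ± 0.072 and passed it (limma adjusted p = 0.022), and it lay 0.71 above the median of all genes. The primed call was lost when any 1 of the 4 primed libraries was left out, where the change ranged from 0.12 to 0.23 (limma adjusted p = 0.0992 to 0.403).

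Sox2, the partner of OCT4, held 101 and 124 RPKM in naive wild-type and 138 and 134 RPKM in naive libraries labelled knockout. In primed cells it held 38.9 and 47.7 RPKM in wild-type and 60.7 and 50.3 RPKM in knockout libraries. Again the libraries labelled knockout were higher in both states without overlap, although the 2 wild-type values of each state lay far apart. Sox2 rose by 0.29 ± 0.098 in the naive comparison (limma adjusted p = 0.0344) and by 0.35 ± 0.098 in the primed comparison (limma adjusted p = 8.7e-04). The primed rise was the 552nd highest change of 13428 genes. The naive call was lost in 10 of 18 alternative settings, among them without either naive library labelled knockout, without either primed knockout library and without naive wild-type replicate 1, which left 0.14, while it was 0.43 without wild-type replicate 2. The primed call was lost without primed knockout replicate 1 (0.22; limma adjusted p = 0.158) and without the intensity trend (limma adjusted p = 0.102), and without primed wild-type replicate 1 the change was 0.21.

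Nanog, with Lin28a, had the largest fall among the members in primed knockout cells. Naive libraries held 506 and 566 RPKM in wild type and 543 and 570.3 RPKM when labelled knockout, and these groups overlap. Primed wild-type libraries held 111 and 122 RPKM and primed knockout libraries 38.6 and 35.5 RPKM, so that every knockout library was below every wild-type one. The primed wild-type mean of 117 ± 7.79 RPKM (SD, n = 2) was 3.15-fold the knockout mean of 37.1 ± 2.21 RPKM (SD, n = 2). Nanog fell by 1.63 ± 0.082 on the log2 scale in the primed comparison (limma adjusted p = 8.8e-86), which is 1.09 below the median of all genes and the 658th lowest change of 13428. The naive change was 0.06 ± 0.082 (95% CI -0.10 to 0.22; limma adjusted p = 0.769). Nanog ranked between 66 and 82 in the naive libraries, 597 and 602 in primed wild type, and 1960 and 1954 in primed knockout.

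Sall4, the zinc finger factor, did not pass the test in either state as deposited. Its values were 50.4 and 51.1 RPKM in naive wild-type and 55.3 and 54.8 RPKM in naive libraries labelled knockout. Primed wild-type libraries held 24.2 and 30.4 RPKM and knockout libraries 24.9 and 22.6 RPKM. The naive groups were close but did not overlap, and the primed groups overlapped. The changes were 0.12 ± 0.12 in naive (95% CI -0.13 to 0.36; limma adjusted p = 0.659) and -0.19 ± 0.12 in primed cells (95% CI -0.43 to 0.05; limma adjusted p = 0.174). The primed change of Sall4 turned positive once the libraries were brought to a common distribution, at 0.36 after quantile normalization (limma adjusted p = 5.4e-06) and 0.33 after loess normalization. Without primed wild-type replicate 1, the deposited values gave -0.35 (limma adjusted p = 8.5e-04).

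Utf1, the chromatin-bound factor, gave the largest change among the members in the naive comparison. Naive wild-type libraries held 40.3 and 49.3 RPKM and naive libraries labelled knockout 86.2 and 73.7 RPKM, all above the wild-type values. The mean was 79.9 ± 8.87 RPKM against 44.8 ± 6.32 RPKM (SD, n = 2 each), a ratio of 1.78. Utf1 rose by 0.82 ± 0.089 in the naive comparison (limma adjusted p = 5.1e-18), the 206th highest change of 13428 genes. That spread comes from the trend over all genes and not from Utf1 itself. Without the intensity trend the naive change was 0.82 ± 0.19 (limma adjusted p = 0.0195). In primed cells Utf1 held 239 and 296 RPKM in wild type and 264 and 196 RPKM in knockout, and the groups overlapped. The primed change of -0.22 ± 0.089 passed the test as deposited (limma adjusted p = 0.0209) but lay 0.31 above the median of all genes, and it was -0.01 after quantile normalization (limma adjusted p = 0.958). Without knockout replicate 2 it was -0.0099 and without wild-type replicate 2 it was -0.069, neither of them called, and it was -0.44 without knockout replicate 1 and -0.38 without wild-type replicate 1. The call was also lost without naive knockout replicate 1 (limma adjusted p = 0.0504).

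Lin28a, the blocker of let-7 maturation, held at most 10.9 RPKM in naive libraries and ranked higher among the genes of primed libraries. Naive wild-type libraries held 10.9 and 8.10 RPKM, and naive libraries labelled knockout 5.49 and 5.43 RPKM. Primed wild-type libraries held 122 and 133 RPKM, and primed knockout libraries 37.9 and 35.5 RPKM. The libraries labelled knockout were lower in both states without overlap, and the wild-type mean was 1.74-fold theirs in naive and 3.48-fold in primed cells. Lin28a fell by 0.69 ± 0.15 in the naive (limma adjusted p = 1.1e-04) and by 1.77 ± 0.15 in the primed comparison (limma adjusted p = 7.5e-31). The primed fall was the 466th lowest change of 13428 genes and the largest among the members.

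Lin28b, the paralogue of Lin28a, was the lowest of the 7 in every naive library and lay below Lin28a in all 8. Naive values were 4.89 and 3.06 RPKM in wild-type libraries and 3.07 and 3.13 RPKM in libraries labelled knockout, which overlap. Primed values were 38.8 and 45.1 RPKM in wild-type and 22.9 and 20.99 RPKM in knockout libraries, and both knockout values were lower. The primed wild-type mean was 1.91-fold that of knockout. Lin28b fell by 0.90 ± 0.21 in the primed comparison (limma adjusted p = 5.0e-05), 0.37 below the median of all genes. This primed change was -0.21 after median centring (limma adjusted p = 0.0431). The naive change was -0.25 ± 0.21 (95% CI -0.66 to 0.15; limma adjusted p = 0.525).

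**Figure D2:**
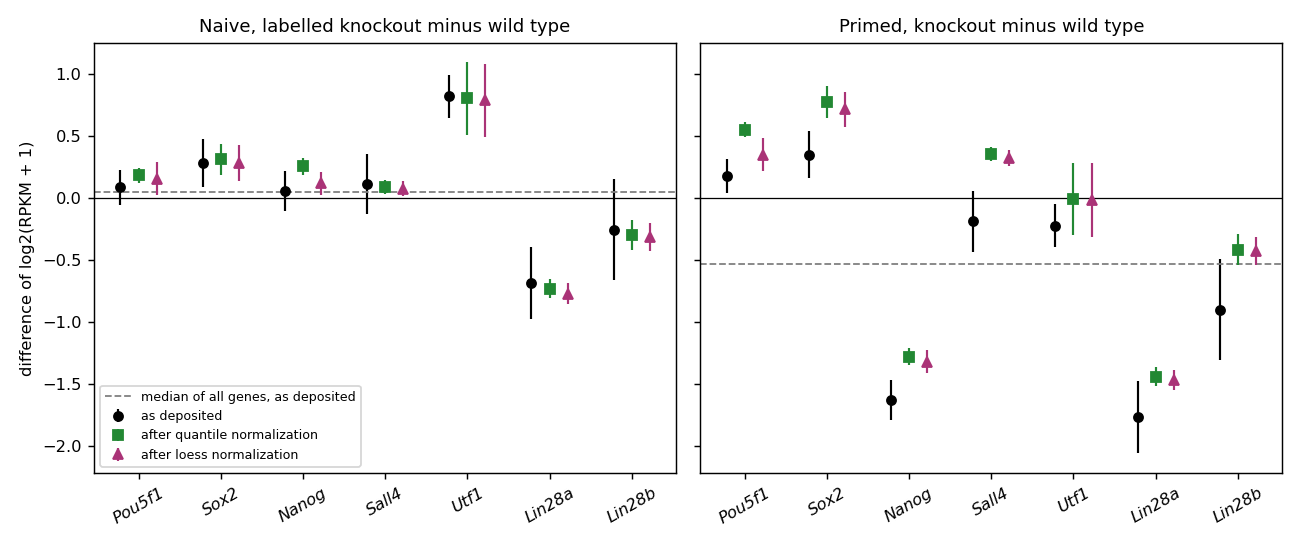
Difference of mean log2(RPKM + 1), labelled knockout minus wild type, for the 7 genes in naive (left) and primed libraries (right), with 95% confidence intervals, from values as deposited and after quantile or loess normalization within the fit, and a dashed line at the deposited median of all genes (0.05 and -0.53). Nanog and Lin28a lie below -1 in the primed panel under each of the 3 treatments of the values, and Utf1 near 0.8 in the naive panel.

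In the naive comparison 3 of the 7 members passed the test, with Sox2 and Utf1 higher and Lin28a lower, beside 11.9% of all genes tested. By direction, 6.08% of all genes were called higher and 5.85% lower. The members' median change was 0.09. In the primed comparison 6 of 7 passed, beside 63.4% of all genes, so that the number of members called is near the background. Pou5f1 and Sox2 were higher, a direction called in 4.16% of all genes, and Nanog, Utf1, Lin28a and Lin28b were lower, a direction called in 59.3%. The members' median was -0.22. Groups without overlap were found for 5 of 7 members in naive cells, beside 52.2% of all genes, and for 5 of 7 in primed cells, beside 83.2%.

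The direction called most often in primed cells changed with the scale given to the libraries. Normalization between libraries brings the typical gene near 0, so it would also remove a fall shared by most genes. The primed median was 0.16 after median centring, 0.03 after quantile and 0.02 after loess normalization. The RNA carried ERCC spike-in, but the values include no spike-in rows, so a fall shared by most genes was not tested. Of all genes, 559 were higher and 7958 lower as deposited, 5580 and 3163 after median centring, 5288 and 4648 after quantile normalization, and 4965 and 4905 after loess normalization within each state. After quantile normalization the primed members called were Pou5f1, Sox2 and Sall4 as higher and Nanog, Lin28a and Lin28b as lower, beside 74.0% of all genes in either direction, 39.4% higher and 34.6% lower. Loess normalization within each state also gave 6 members, beside 73.5% of all genes. The quantile-normalized changes were 0.55 for Pou5f1, 0.78 for Sox2, -1.28 for Nanog, -1.44 for Lin28a and -0.42 for Lin28b. After median centring they were 0.87 for Pou5f1, -0.93 for Nanog and -1.08 for Lin28a. In naive cells all 7 members were called after quantile normalization, with Lin28a and Lin28b lower, beside 59.3% of all genes, 31.9% higher and 27.5% lower. All 7 were called after loess normalization too, beside 57.5%.

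The difference between the knockout effects, primed minus naive, was tested as a term of its own. It passed for 3 of 7 members, all negative, beside 49.6% of all genes, with 47.4% of all genes negative and 2.16% positive. After quantile normalization it passed for 6 members, beside 64.4% of all genes, with Pou5f1, Sox2 and Sall4 positive (33.9% of all genes) and Nanog, Utf1 and Lin28a negative (30.5%). After loess normalization it passed for 5, beside 63.4%, with Sox2 and Sall4 positive (32.7%) and Nanog, Utf1 and Lin28a negative (30.6%). The difference was -1.68 ± 0.12 for Nanog (limma adjusted p = 1.9e-45), -1.05 ± 0.13 for Utf1 (limma adjusted p = 4.8e-15) and -1.08 ± 0.21 for Lin28a (limma adjusted p = 3.4e-06), with a median of -0.59 over all genes. Without the intensity trend the Utf1 value was -1.05 ± 0.27 (limma adjusted p = 0.0079). The difference did not pass for Pou5f1 at 0.09 ± 0.10 (limma adjusted p = 0.442), Sox2 at 0.07 ± 0.14 (limma adjusted p = 0.696), Sall4 at -0.30 ± 0.18 (limma adjusted p = 0.131) or Lin28b at -0.65 ± 0.29 (limma adjusted p = 0.0549). Without primed wild-type replicate 1 it passed for Sall4 (-0.46; limma adjusted p = 7.4e-04) and Lin28b (-0.75; limma adjusted p = 0.0189), and without naive wild-type replicate 1 for Lin28b (-0.92; limma adjusted p = 0.0051).

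**Figure D3:**
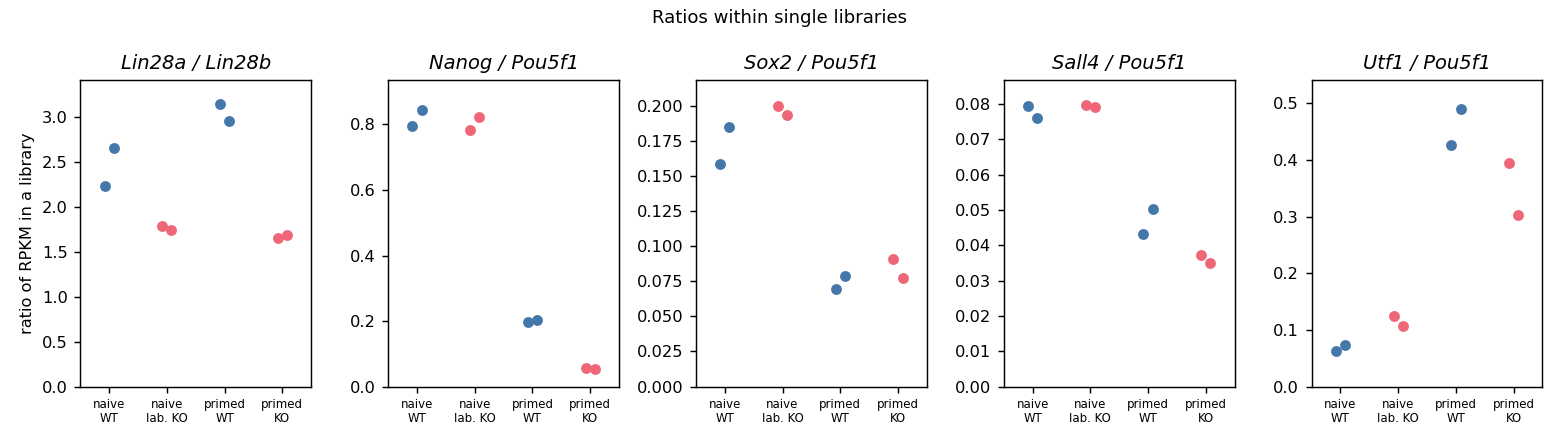
Ratio of the RPKM of 2 members within each of the 8 libraries, with 1 point per library and axes that start at 0. The ratio of Lin28a to Lin28b is lower in each library labelled knockout (1.65 to 1.79) than in each wild-type library (2.23 to 3.15), and that of Nanog to Pou5f1 is lowest in the primed knockout libraries.

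Ratios of members within a library carry no single factor that multiplies a whole library, and RPKM is already a level per length. A scaling that differs with the level of a gene would not cancel, and the method of scaling is not stated. In naive wild type, replicate 1 minus replicate 2 in log2(RPKM + 1) was 0.39 for Lin28a and 0.54 for Lin28b, but -0.08 for Pou5f1. Lin28a stood to Lin28b as 2.23 and 2.65 to 1 in naive wild-type libraries, 1.79 and 1.74 in naive libraries labelled knockout, 3.15 and 2.95 in primed wild type, and 1.65 and 1.69 in primed knockout. The ratio was thus lower in the libraries labelled knockout of both states. Nanog stood at 79.6% and 84.4% of the Pou5f1 level in naive wild type, 78.3% and 82.3% in naive libraries labelled knockout, 19.9% and 20.2% in primed wild type, and 5.79% and 5.47% in primed knockout. The naive groups overlapped in this ratio and the primed ones did not. Sox2 stood at 15.8% and 18.5% of Pou5f1 in naive wild type and at 19.96% and 19.3% in naive libraries labelled knockout, and at 6.96% and 7.90% in primed wild type and 9.09% and 7.76% in primed knockout. The naive groups did not overlap in this ratio and the primed ones did. Utf1 stood at 6.35% and 7.35% of Pou5f1 in naive wild type against 12.4% and 10.6% in naive libraries labelled knockout, and at 42.6% and 48.9% in primed wild type against 39.5% and 30.2% in primed knockout. Sall4 stood at 7.61% to 7.97% of Pou5f1 over the 4 naive libraries, 4.33% and 5.04% in primed wild type and 3.72% and 3.49% in primed knockout. These ratios are a description without a test.

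By mean RPKM the order in naive wild-type libraries was Pou5f1, Nanog, Sox2, Sall4, Utf1, Lin28a and Lin28b, where the gap of Sall4 to Utf1 is within the SD of Utf1. In primed wild-type libraries the order was Pou5f1, Utf1, Lin28a, Nanog, Sox2, Lin28b and Sall4. There the values of Lin28a and Nanog overlap, as do those of Sox2 and Lin28b. Utf1 ranked 2188 and 1746 among all rows in naive wild type and 213 and 178 in primed wild type. Lin28a ranked 6832 and 6893 in naive wild type and 520 and 521 in primed wild type, and 2000 and 1953 in primed knockout. Ranks compare a gene with the others in its library, so Lin28a, Lin28b and Utf1 stood higher and Nanog, Sox2 and Sall4 lower among the genes of a primed library than of a naive one.

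**Figure D4:**
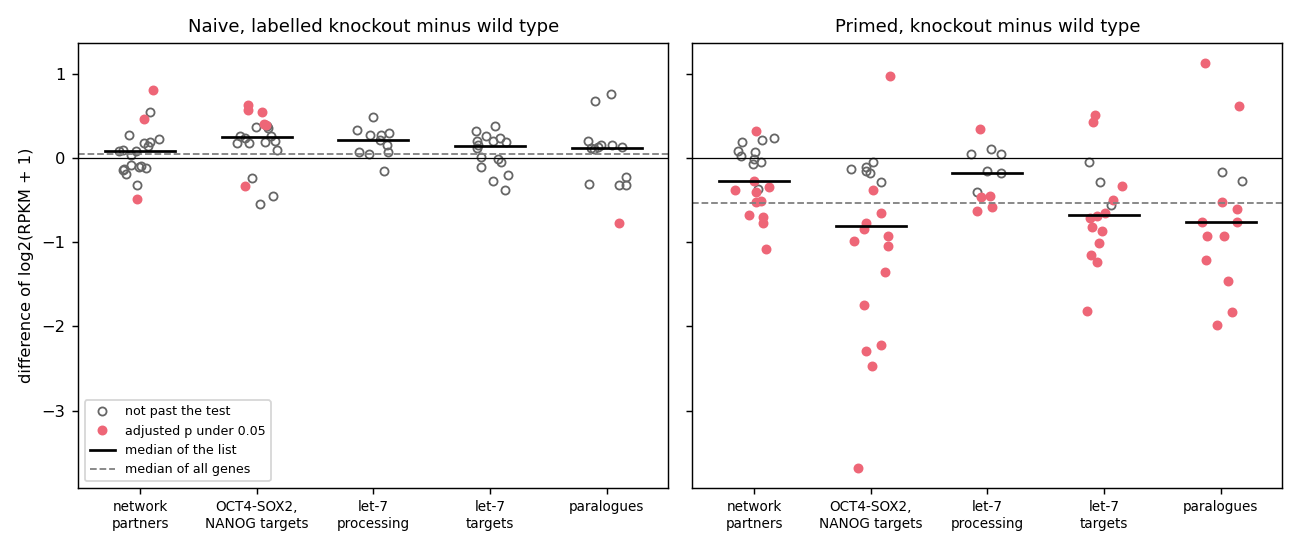
Change in log2(RPKM + 1), labelled knockout minus wild type, of each tested gene of 5 lists in naive (left) and primed cells (right). Filled points passed the test across all genes, short lines mark the median of a list and the dashed line the median of all genes. In the primed panel the targets of OCT4-SOX2 and NANOG have a median of -0.81 and reach -3.67.

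Of 21 partners of OCT4 and NANOG in the pluripotency network, 2 rose and 1 fell in the naive comparison, with a list median of 0.08. Over all genes 6.08% were called higher and 5.85% lower there, with a median of 0.05. Rif1, a chromosome-bound protein of replication timing, rose by 0.46 ± 0.10 (limma adjusted p = 2.4e-04). The deacetylase gene Hdac1 fell by 0.49 ± 0.11 (limma adjusted p = 1.0e-04). In the primed comparison 1 rose and 10 fell, beside 4.16% and 59.3% of all genes. The list median was -0.27 against -0.53 for all genes. The histone-binding factor gene Rbbp7 rose by 0.31 ± 0.086 (limma adjusted p = 6.2e-04). Mybl2, a cell cycle transcription factor, fell by 1.08 ± 0.12 (limma adjusted p = 9.2e-19), and Thap11, which encodes the factor RONIN, fell by 0.77 ± 0.13 (limma adjusted p = 3.7e-08). After quantile normalization 13 of the 21 were higher and 6 lower in primed cells, beside 39.4% and 34.6% of all genes. The balance of this list thus changed with the scale.

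Of 20 known targets of OCT4-SOX2 and NANOG, 5 rose and 1 fell in the naive comparison, with a list median of 0.25. Over all genes 6.08% were called higher and 5.85% lower there, with a median of 0.05. Tdgf1, the Nodal co-receptor, rose from 126 and 145 RPKM in wild type to 206 and 211 RPKM, a change of 0.63 ± 0.082 (limma adjusted p = 3.0e-12). Phc1, which encodes a Polycomb group protein, rose by 0.57 ± 0.078 (limma adjusted p = 3.4e-11). Upp1, the gene of a uridine phosphorylase, was the target that fell; it fell by 0.33 ± 0.12 (limma adjusted p = 0.0476). In the primed comparison 1 rose and 13 fell, with a list median of -0.81 against -0.53 for all genes, of which 59.3% were called lower. Lefty1, a secreted Nodal inhibitor, held 248 and 287 RPKM in primed wild-type and 21.3 and 18.8 RPKM in primed knockout libraries, and fell by 3.67 ± 0.19 (limma adjusted p = 4.2e-81). Gdf3, a TGF-beta family ligand, fell by 2.48 ± 0.20 (limma adjusted p = 3.4e-33). L1td1, an RNA-binding protein gene of pluripotent cells, went the other way from 126 and 136 RPKM to 259 and 253 RPKM, a rise of 0.97 ± 0.081 (limma adjusted p = 6.4e-31). After quantile normalization 4 targets were higher and 12 lower, with a list median of -0.32, beside 34.6% of all genes called lower.

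The let-7 pathway was read on either side of LIN28. Of 11 factors listed broadly under microRNA processing in the let-7 pathway, none passed in the naive comparison as deposited (0 by limma, 2 at an unadjusted p under 0.05, and 8 after quantile normalization, 7 of them higher). Over all genes 59.3% were called in the naive comparison after quantile normalization, 31.9% higher and 27.5% lower. In the primed comparison 1 of the 11 factors rose and 4 fell as deposited, with a list median of -0.17. Over all genes 4.16% were called higher and 59.3% lower there, with a median of -0.53. After quantile normalization 8 of the 11 were higher and 2 lower, beside 39.4% and 34.6% of all genes. The list median was then 0.28 against 0.03 for all genes, so the balance turned over with the scale. Ago2, the Argonaute that holds the mature microRNA, fell by 0.58 ± 0.12 (limma adjusted p = 1.2e-05). Dicer1, which cuts the precursor, fell by 0.63 ± 0.15 (limma adjusted p = 1.1e-04), and Tarbp2, its partner, rose by 0.34 ± 0.15 (limma adjusted p = 0.0331). Of 16 let-7 targets none passed in the naive comparison (0 by limma, 4 at an unadjusted p under 0.05, and 13 after quantile normalization, 8 of them higher). In the primed comparison 2 rose and 11 fell, with a list median of -0.68, beside the -0.53 and the 59.3% called lower over all genes. Igf2bp2, an mRNA-binding protein gene, held 39.4 and 47.9 RPKM in wild-type and 11.9 and 11.3 RPKM in knockout libraries, and fell by 1.82 ± 0.14 (limma adjusted p = 4.2e-39). Acvr1b, an Activin receptor gene, fell by 1.24 ± 0.18 (limma adjusted p = 3.3e-11). The cyclin gene Ccnd2 rose by 0.43 ± 0.17 (limma adjusted p = 0.0242). Cdc34, a ubiquitin-conjugating enzyme gene, rose by 0.51 ± 0.082 (limma adjusted p = 5.7e-09). After quantile normalization 6 let-7 targets were higher and 7 lower, beside 39.4% and 34.6% of all genes. The balance as deposited was thus not kept. Mature let-7 was not measured in these values.

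Among paralogues of the POU, SOX and SALL members, 14 of 16 were tested, and 1 fell in the naive comparison, where 5.85% of all genes were called lower. Primed cells had 10 that fell and 2 that rose, beside 59.3% and 4.16% of all genes. Sox3, which encodes a close relative of SOX2, held 3.91 and 2.10 RPKM in naive wild-type libraries against 1.59 and 1.03 RPKM in those labelled knockout, and fell by 0.77 ± 0.28 (limma adjusted p = 0.0464). The paralogues of Sall4 that rose in primed cells were Sall3, by 1.13 ± 0.28 from 0.320 and 0.485 to 2.20 and 1.92 RPKM (limma adjusted p = 1.9e-04), and Sall2, by 0.62 ± 0.20 from 19.5 and 23.1 to 34.5 and 31.7 RPKM (limma adjusted p = 0.0038). Among the primed paralogues that fell most, the neural SOX gene Sox1 fell by 1.98 ± 0.28 (limma adjusted p = 2.7e-11) and the POU gene Pou6f1 fell by 1.83 ± 0.28 (limma adjusted p = 2.7e-10). After quantile normalization 5 paralogues were higher and 8 lower in primed cells, beside 39.4% and 34.6% of all genes.

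Markers of the states and of other cell types were summed per library to set beside these results. The 10 naive markers summed to 843 to 946 RPKM over the naive libraries, 22.01 to 28.5 RPKM in primed wild type, and 11.8 RPKM in both primed knockout libraries, where 8 of the 10 were under 1 RPKM. The 7 primed markers summed to 286 to 332 RPKM in primed wild type and 263 to 284 RPKM in primed knockout, against 37.2 to 54.3 RPKM over the naive libraries. Most of the primed sums lay in Dnmt3b and Zic2, and they cover opposite changes. In the primed comparison 1 of 6 tested primed markers rose and 3 fell, beside 4.16% and 59.3% of all genes. Fgf5 had a mean of 18.2 RPKM in primed knockout against 5.15 RPKM in wild type, whereas Sox3 had 4.80 against 15.2 RPKM and Pou3f1 8.34 against 17.0 RPKM. Both labels of state are thus borne by their markers. Beside the falls of Nanog, Lin28a and Lin28b in primed knockout cells, the 6 markers of mesoderm and primitive streak summed to 41.3 to 45.0 RPKM in knockout against 5.11 to 7.06 RPKM in wild type. T, the Brachyury gene, held 37.4 and 33.7 RPKM against 1.94 and 2.89 RPKM, and Eomes had a mean of 6.59 against 1.18 RPKM. The other 4 of the 6 markers, Tbx6, Mixl1, Gsc and Mesp1, went the other way. They were under 1 RPKM in both knockout libraries, with means below those of wild type. Tbx6 was called lower as deposited, by 0.61 ± 0.26 (limma adjusted p = 0.0313), and not after quantile normalization. The 6 fibroblast markers summed to 15.9 to 16.7 RPKM in primed knockout and 37.9 to 52.0 RPKM in primed wild type, and to at most 2.07 RPKM in naive cells. Endoderm markers summed to at most 5.77 RPKM and trophoblast markers to at most 18.004 RPKM in any library. Beside the rise of Utf1 and Sox2 in naive libraries labelled knockout, the 6 neural markers summed to 83.5 to 86.4 RPKM against 44.3 to 50.8 RPKM in naive wild type, and 3 of the 6 were under 1 RPKM in both groups. Most of that naive difference lay in Tubb3, a neuronal tubulin gene, with a mean of 74.3 RPKM against 39.7 RPKM, while Nes, an intermediate filament gene of neural progenitors, had means of 8.83 and 5.57 RPKM. Sox1 and Pax6 did not pass the test in naive cells. In primed cells the neural sums were 153 to 162 RPKM in knockout and 136 to 160.4 RPKM in wild type. Of 4 neural markers tested there 1 rose and 3 fell, beside 4.16% and 59.3% of all genes. Nes had a mean of 134 RPKM in primed knockout against 73.6 RPKM in wild type, whereas Tubb3 had 20.7 against 55.7 RPKM, Sox1 1.68 against 9.63 RPKM and Pax6 0.960 against 9.04 RPKM. The part of these cells or programmes in the members' changes was not tested.

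The members' patterns over the 8 libraries were compared after centring each state on its mean, so that only differences within a state count, and as a description without a p. Over the 21 pairs, Lin28a and Lin28b were most alike (Pearson r = 0.961), followed by Pou5f1 and Sox2 (r = 0.949) and Nanog and Lin28a (r = 0.897). Pou5f1 and Lin28a ran opposite ways (r = -0.895). Among 9960 other genes with a group mean of at least 5 RPKM, those most like Nanog were Anp32a and Iars (r = 0.999 each) and those most like Lin28a were H2-K1 and Eef2kmt (r = 0.997 each). Lin28b was most like Ikzf5 and Tox3 (r = 0.996 each), Pou5f1 most like Mthfd1 and Mak16 (r = 0.991 and 0.988), and Sox2 most like Ndufb6 and Gpx1 (r = 0.981 and 0.978). Sall4 was most like Abcc5 and Poldip2 (r = 0.993 and 0.989) and Utf1 most like Ndufc2 and Arf5 (r = 0.991 and 0.985). A correlation of 0.95 or more was reached by 1193 genes for Nanog, 1381 for Lin28a and 1337 for Lin28b, but by 28 for Sox2 and 22 for Utf1. All of these points share the scaling of their libraries, and the high values for Nanog and the Lin28 genes hold for many genes at once.

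Some members share sequence with other genes, and it is not stated whether reads were counted by strand. Sox2 overlaps the long noncoding gene Sox2ot in RefSeq, listed at 0.248 to 1.36 RPKM. Sall4 overlaps the noncoding gene Gm14261 and Lin28b the pseudogene Gm51827 in RefSeq. The 5 Pou5f1-related rows in the files summed to 0.288 to 1.39 RPKM in a library, against at least 559.6 RPKM for Pou5f1 itself.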

How the data were processed

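Per the submitters' processing notes, cutadapt 1.9, STAR 2.5.2b, featureCounts 1.5.1, affy and build mm9 were used; parameters and strand are not given there. Total RNA with ERCC spike-in went through ribosomal depletion, per the labels' protocols. The authors deposited RPKM values that carry a further, unstated scaling: no value is 0, and the files hold 0 spike-in rows. Depth is unknown, so no counting error could be given. Of 24505 rows, 4017 share their values with another row in all 4 naive libraries, and 3350 of these do so in all 4 primed libraries; the states were therefore not tested against each other.

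Values were taken as log2(RPKM + 1), so changes of low genes are understated. A mean for each of the 4 groups was fitted with limma 3.58.1 (R 4.3.3) and a trended prior variance, and p-values were adjusted over 13428 genes at a threshold of 0.05. The prior degrees of freedom were infinite, so each gene takes its variance from the trend alone. The procedure was tested on simulated data with independent noise set to the trend and no shift of whole libraries. Of 67 changes of 1.5-fold, 40 were called in the right direction in the naive and 35 in the primed simulation. Of 13228 unchanged genes 2 and 3 were called. The real libraries do shift, with a median replicate difference of 0.30 in naive and -0.32 in primed wild type. The simulation thus cannot tell how often real genes are called wrongly. Alternatives were a pseudocount of 0.1, no filter, a 5 RPKM filter, quantile normalization, median centring, loess within each state, each state alone, library weights, no trend, a replicate block, and each library left out in turn. Promoter windows and neighbours came from RefSeq (GRCm38.p6), matched by symbol. Figures were drawn with matplotlib 3.10.9.

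The members, the lists and the alternatives were chosen with earlier results of these data known. The rule for naming took every member, Ino80, from each list up to 2 called genes per direction in the naive and primed comparisons, by size of change, and for likeness the 2 genes with the highest r. A gene that this rule selects is not reported here. Markers were taken as whole lists, and the streak, primed and neural markers were named after their values were seen.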

Additional observations from a re-analysis of the deposited data

Results flagged for a closer look

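The change in primed cells differed from the change in naive cells, by a test of the difference itself, for 3 members. It was -1.68 for Nanog, from 0.06 in the naive to -1.63 in the primed comparison. It was -1.05 for Utf1, which rose by 0.82 in the naive comparison and had a primed change of -0.22. It was -1.08 for Lin28a, which fell by 0.69 in the naive and by 1.77 in the primed comparison. All genes had a median difference of -0.59, and after quantile normalization the differences were -1.54 for Nanog, -0.81 for Utf1 and -0.71 for Lin28a.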

How the results depend on the processing

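Of 21 changes (7 members in 3 comparisons), 5 kept direction and call in every alternative that was run, namely Utf1 in naive cells, Nanog, Lin28a and Lin28b in primed cells and the difference for Nanog. Over 371 values from the alternatives, 309 kept both, 32 lost the call, 17 gained it and 13 changed sign. The number of members called in the naive comparison (3) became 7 after quantile and 7 after loess normalization, beside 7967 and 7719 of 13428 genes. That in the primed comparison (6) became 3 without the intensity trend, beside 8157 of 13428 genes. That of the difference (3) became 6 after quantile and 5 after loess normalization, beside 8651 and 8508 genes. With each library left out in turn, 2 to 3 members were called in naive cells, 4 to 6 in primed cells and 3 to 5 in the difference, the 5 without primed wild-type replicate 1. Over all genes these counts ran from 552 to 2946, 5539 to 9960 and 3457 to 9269, beside 1602, 8517 and 6658. A group left with 1 library takes its spread from the other groups.

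Signs turned in the naive comparison without wild-type replicate 1 for Nanog (-0.024, within a range of -0.024 to 0.14 over the left-out libraries) and Lin28b (0.014, within -0.52 to 0.014). In the primed comparison Sall4 turned to 0.51 after median centring, 0.36 after quantile and 0.33 after loess normalization, and Utf1 to 0.47 after median centring. The difference turned for Sox2 without naive wild-type replicate 2 (-0.082), primed knockout replicate 1 (-0.066) or primed wild-type replicate 1 (-0.077), within -0.082 to 0.21, for Sall4 after median centring (0.45), quantile (0.27) and loess normalization (0.25), and for Lin28b after median centring (0.10). The primed call for Pou5f1 was lost in 8 and that for Utf1 lost or turned in 10 of 18 settings. Lin28a lost its naive call with each state alone (limma adjusted p = 0.111). The differences for Utf1 and Lin28a were lost after median centring (limma adjusted p = 0.438 and 0.0584). The causes were not tested.

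The deviations of same-numbered libraries had r = 0.314 in naive and -0.0356 in primed cells. With 2 numbers per state and nothing in the labels to tie them, the numbers were not taken to pair the samples. With the replicate number as a block, 2, 4 and 3 members and 942, 7672 and 5171 genes were called in the naive, primed and difference comparisons.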
